A study of Saccharomyces cerevisiae with 15 samples.

Results

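The genes described here are 44 genes of *Saccharomyces cerevisiae* that build the peroxisome or degrade fatty acids in it, out of 6224 genes measured. They were chosen by name: the 29 genes whose standard symbol is *PEX* followed by a number (biogenesis), and 15 genes for the enzymes, transporters and regulators of beta-oxidation (*POX1*, *FOX2*, *POT1*, *ECI1*, *DCI1*, *SPS19*, *TES1*, *PXA1*, *PXA2*, *ANT1*, *CAT2*, *CRC1*, *OAF1*, *PIP2* and *ADR1*). RNA came from the commercial wine strain QA23, grown in glucose medium to exponential phase and hybridised with 1 dye on 15 arrays, 3 biological replicates in each of 5 conditions. Control cells received neither agent and Mel cells grew with 5 µM melatonin. H cells were stressed with 2 mM H2O2 for 1 h, MelH cells had 5 µM melatonin and the same stress, and 25MelH cells had 25 µM melatonin and the same stress. No array had 25 µM melatonin without H2O2, and all samples were of 1 strain.

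Peroxisomes import their enzymes fully folded. The receptor Pex5p binds one type of targeting signal and Pex7p, with a co-receptor of the Pex18p and Pex21p pair, binds the other. The cargo passes a docking complex in the membrane, and the receptor is then ubiquitinated and pulled back to the cytosol for another round. In yeast the peroxisome is the only place of fatty acid beta-oxidation, and the genes for it are repressed by glucose and induced by fatty acids such as oleate through the transcription factors Oaf1p, Pip2p and Adr1p.

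The level of a gene is its log2 processed signal minus the 75th percentile of the log2 signal on the same array, so that levels are relative to the other genes of an array. That percentile lay between 4186 and 5922 signal units on the 6 arrays without H2O2 and between 2274 and 3552 on the 9 with it. The spread of the negative control spots was 63.6, 44 and 26.1 units (SD) on the 3 Mel arrays and between 0.666 and 17.2 on the other 12. In 9 of the 15 columns of the authors' normalized matrix the values equal the scanner table of another sample, so the scanner tables were used with their own labels. Of 10 genes of the peroxide response, 9 were higher in H than in Control (the exception, *CTT1*, was lower), and 9 were higher in MelH than in Mel. Of the 44 genes, 38 were well above background on all 15 arrays. The other 6 were *PEX9*, *PEX18*, *POX1*, *POT1*, *SPS19* and *CRC1*, with signals of 2.76 to 109 units. They were 13.6% of the 44, and 13.5% of all genes were below that mark on some array. Each log2 change sets the mean level of 1 condition against that of another, over 3 arrays each, and is followed by its standard error (SE). A gene was called higher or lower when the p of limma, adjusted over all 6224 genes with the Benjamini-Hochberg method, was under 0.05.

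After H2O2 more of these genes were lower than higher, relative to the rest of the array. In H vs. Control 27 of the 44 genes were lower (61.4%) and 5 were higher (11.4%), where 41.2% of all genes were lower and 27.2% higher. Counted without direction, the 32 called genes were 72.7% of the 44, close to the 68.4% of all genes that were called. The median log2 change was −0.35 over the 44 genes and −0.09 over all genes. Of the biogenesis genes 20 of 29 were lower (69%) and 4 higher, against 7 of 15 lower (46.7%) and 1 higher among the oxidation genes. Among the genes well above background on all arrays, the largest decrease was that of *PEX7* and the largest increase that of *PEX21*. *POX1*, *PEX9* and *PEX18*, near background in H, had fitted changes of −1.50, −1.25 and −1.24 that were 0.13, 0.44 and 0.31 with normexp and are not ranked. The groups of arrays did not overlap for 32 of the 44 genes, where 73.9% of all genes did not overlap.

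**Figure D1:**
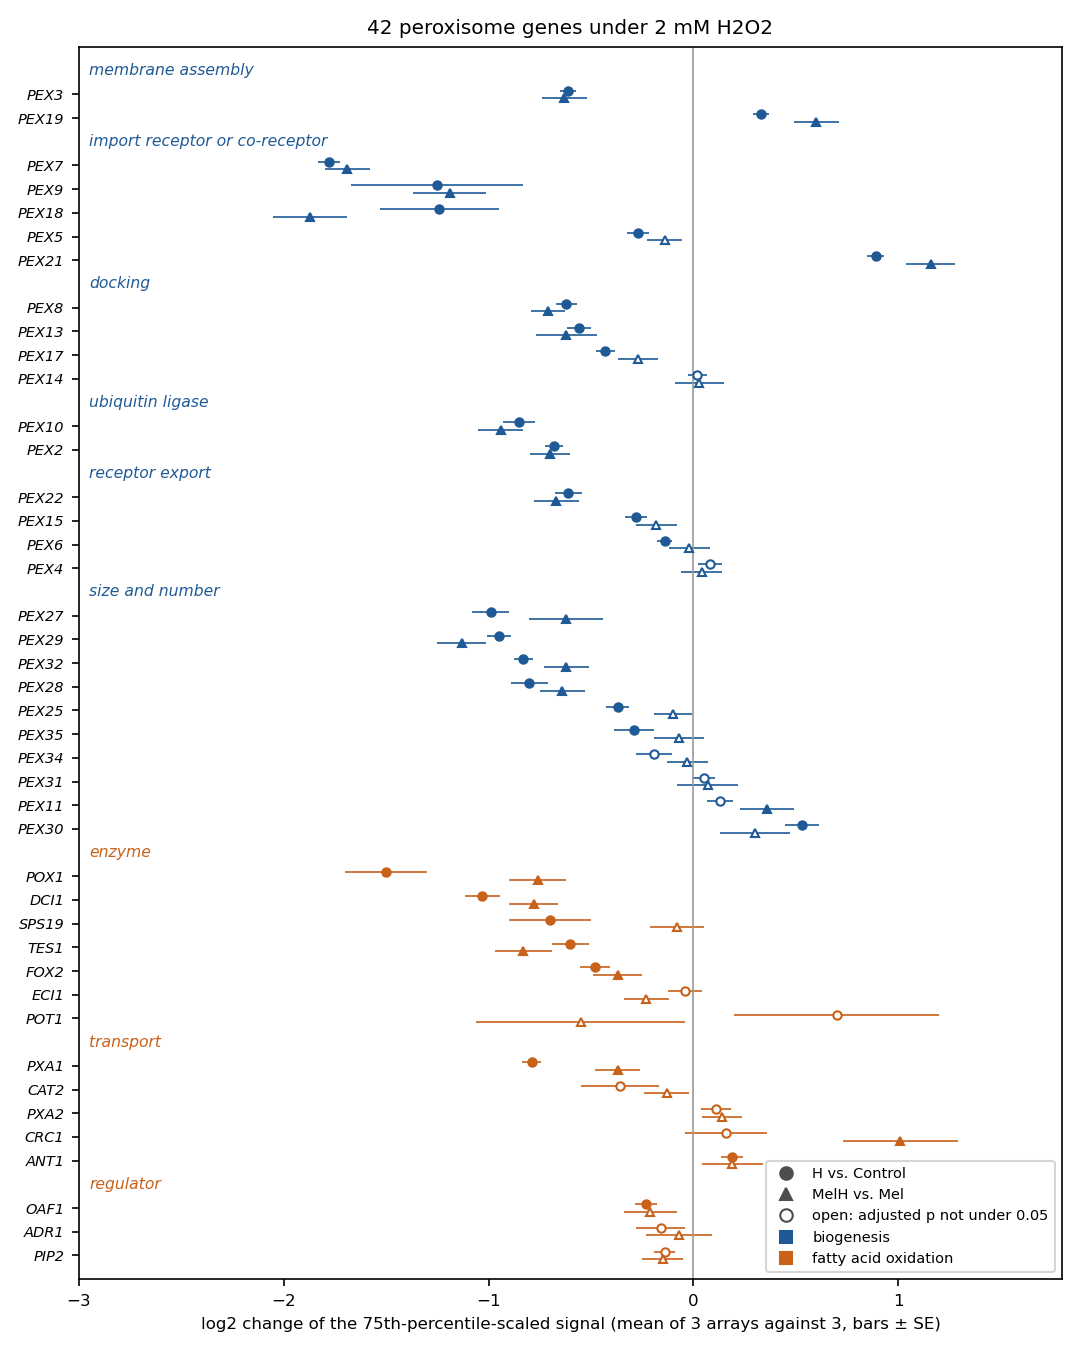
Log2 change under 2 mM H2O2 of 42 of the 44 genes (horizontal axis, bars ± SE), grouped by role, in H vs. Control (circles) and MelH vs. Mel (triangles). Filled symbols had an adjusted p under 0.05; *PEX7* lies near −1.7 in both comparisons and *PEX21* near 1.

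The receptor of the second import route changed most among the genes well above background. *PEX7*, the receptor for cargo with the amino-terminal signal, had levels of −1.85, −1.94 and −1.92 on the Control arrays and −3.69, −3.61 and −3.76 on the H arrays. All 3 H arrays were far below all 3 Control arrays, and the other 6 stressed arrays lay in the same narrow band, between −3.76 and −3.68. The log2 change was −1.78 ± 0.053 (3.44-fold lower, adjusted p = 8.86e-06). Its co-receptors went in opposite directions. *PEX21* stood at −3.11, −3.19 and −3.16 in Control and at −2.26, −2.29 and −2.24 in H. Every H array was above every Control array, a change of 0.89 ± 0.041 (1.86-fold, adjusted p = 2.49e-05) that was −0.33 when arrays were scaled on the spike-in probes, a scaling that lowered the median of all genes to −1.32. *PEX18*, the other co-receptor, was near background: −7.06, −7.58 and −6.77 in Control and −8.85, −7.99 and −8.29 in H. All its H arrays were below its Control arrays, but only 2 of 3 Control arrays and 1 of 3 H arrays measured it well above background. Its change of −1.24 ± 0.29 (adjusted p = 0.0108) was 0.31 and called higher with normexp, whose offset lifts dim genes on stressed arrays.

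The receptors for the carboxy-terminal signal had smaller or less certain changes. *PEX5*, the general receptor, was lower by 1.2-fold (−0.27 ± 0.054, adjusted p = 0.00614) and was not called with median or quantile scaling, at −0.01 and −0.04. *PEX9*, a receptor for a small subset of this cargo, had levels of −7.63, −8.68 and −7.69 in Control and −8.77, −9.98 and −8.99 in H. These groups did not overlap, but 0 of 3 H arrays and 2 of 3 Control arrays were well above background, so that the decrease was at least 1.06-fold. The fitted change of −1.25 ± 0.42 (adjusted p = 0.0409) lost its call without Control replicate 1 (−1.07) or 3 (−1.10) or H replicate 2 (−0.88) or 3 (−1.38). With normexp, limited by its offset as for *PEX18*, the change was 0.44 and called higher.

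Docking and ubiquitination genes were mostly lower. Of the 4 genes for docking and cargo release, *PEX8*, which links docking to the ubiquitin ligase, was lower (−0.62 ± 0.052). The docking subunits *PEX13* (−0.56 ± 0.059) and *PEX17* (−0.43 ± 0.047) were lower too. *PEX17* was called higher with quantile scaling (0.17). *PEX14*, which encodes a central subunit of the import pore, was not called at 0.02 ± 0.047 (95% interval −0.10 to 0.14, adjusted p = 0.739). In the RING ubiquitin ligase complex, *PEX10* was lower by 1.8-fold and *PEX2* by 1.6-fold. *PEX10* fell from −1.52, −1.32 and −1.26 in Control to −2.19, −2.20 and −2.24 in H. The 2 groups were separate by far more than their spread (−0.85 ± 0.077, adjusted p = 2.44e-04). *PEX2* and *PEX10* were lower with each of 5 kinds of scaling or background correction.

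The 2 measured genes of membrane protein insertion moved apart. *PEX3*, the membrane anchor, was at −1.93, −1.95 and −1.95 in Control and −2.53, −2.53 and −2.60 in H. *PEX19*, the soluble chaperone that delivers membrane proteins to it, was at −0.07, −0.07 and −0.04 in Control and 0.24, 0.31 and 0.26 in H. Neither gene's groups overlapped. The changes were −0.61 ± 0.039 (adjusted p = 6.66e-05) for *PEX3* and 0.33 ± 0.038 (adjusted p = 6.15e-04) for *PEX19*, the latter −0.90 with spike-in scaling.

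The genes of receptor export described here had mostly small changes. *PEX22*, which anchors the ubiquitin-conjugating enzyme Pex4p, was lower at −0.61 ± 0.064 (adjusted p = 4.01e-04), and *PEX4* itself was not called (0.08 ± 0.058, 95% interval −0.06 to 0.23). *PEX6*, for an ATPase that extracts the receptor, was lower (−0.14 ± 0.038, adjusted p = 0.018). With median and with quantile scaling its change was 0.12 and called higher. *PEX15*, the membrane anchor of Pex6p, was lower at −0.28 ± 0.054 (adjusted p = 0.00446), but 0.03 with quantile scaling. The call of *PEX6* was lost without H replicate 1 (−0.14) or 2 (−0.13).

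Among the 10 genes for peroxisome size and number, 6 were lower (60%) and 1 higher (10%), where 41.2% of all genes were lower and 27.2% higher. *PEX28*, *PEX29* and *PEX32*, which regulate peroxisome number and size, were lower by 1.74, 1.93 and 1.77-fold. *PEX28* was lower with 4 of 5 kinds of scaling or background correction here and with 3 of 5 in MelH vs. Mel. *PEX29* had levels of −0.70, −0.66 and −0.78 in Control and −1.65, −1.75 and −1.60 in H. *PEX32* went from −2.80, −2.88 and −2.89 to −3.73, −3.66 and −3.66. In both genes the drop was many times the spread within a condition, with adjusted p = 5.69e-05 for *PEX29* and 4.07e-05 for *PEX32*. Their relative *PEX30* was higher (0.53 ± 0.082, adjusted p = 0.00209; −0.70 with spike-in scaling), and *PEX31* was not called (0.05 ± 0.055, 95% interval −0.08 to 0.19).

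The 3 genes of the Pex11p family differed as well. *PEX27*, a divider of peroxisomes, was at −5.04, −5.05 and −4.78 in Control and −6.02, −5.85 and −5.96 in H. Its H arrays were all below its Control arrays (−0.99 ± 0.092, 1.98-fold lower, adjusted p = 2.71e-04). *PEX25*, which initiates elongation of the membrane, was lower by 1.29-fold (−0.37 ± 0.056, adjusted p = 0.00197). It was lower with 4 of 5 kinds of scaling or background correction (−0.11 with median centring). In MelH vs. Mel *PEX25* was not called (−0.10 ± 0.093, adjusted p = 0.416). *PEX11*, the best known factor of peroxisome division, was not called (0.13 ± 0.065, 95% interval −0.03 to 0.29). *PEX34*, which acts with this family on peroxisome number, was not called (−0.19 ± 0.088). *PEX35*, a regulator of peroxisome abundance, was lower (−0.29 ± 0.097, adjusted p = 0.04) but was called higher with quantile scaling (0.31). Its call as lower was lost without Control replicate 2 (−0.26) or 3 (−0.23) or H replicate 1 (−0.26) or 3 (−0.25).

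**Figure D2:**
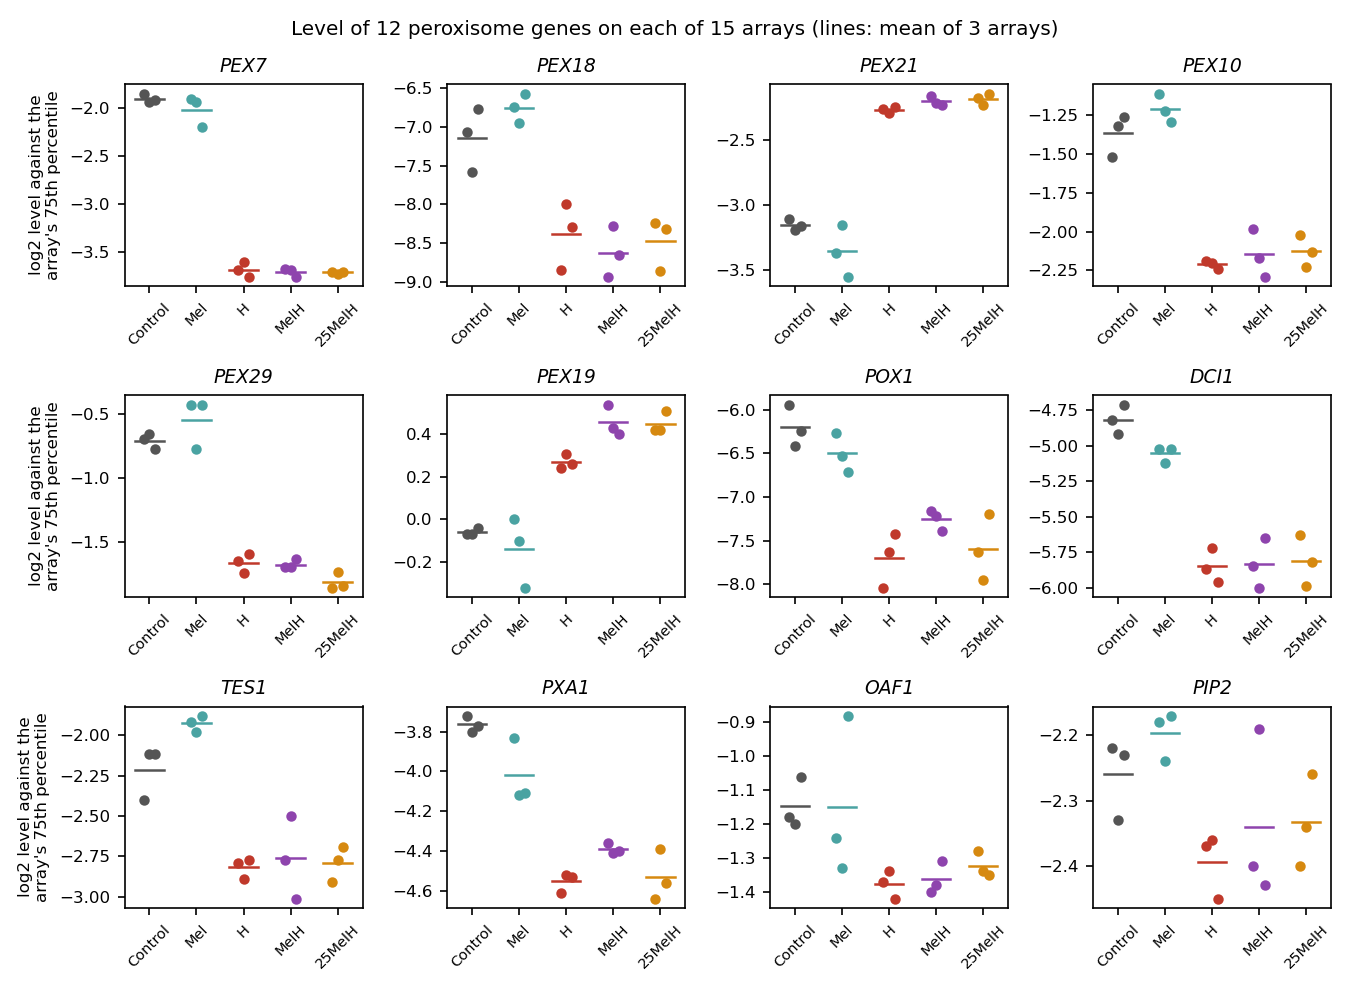
Level of 12 of the genes on each of the 15 arrays (vertical axis, log2 signal minus the array's 75th percentile; lines, mean of 3 arrays per condition; axes differ between panels). The 9 stressed arrays of *PEX7* lie between −3.76 and −3.61 and the 6 others between −2.20 and −1.85; *PIP2* shows little separation.

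The enzymes of beta-oxidation were lower where they were called. *POX1*, the acyl-CoA oxidase of the first step and the source of H2O2 in this pathway, was at −5.94, −6.41 and −6.24 in Control and −8.04, −7.63 and −7.42 in H. No array of H reached the Control range, and 1 of 3 H arrays was well above background. The change of −1.50 ± 0.2 (adjusted p = 9.93e-04) was 0.13 with normexp, whose offset lifts dim genes on stressed arrays. *FOX2*, the multifunctional enzyme of the next steps, fell from −3.26, −3.44 and −3.33 to −3.85, −3.73 and −3.91 without overlap (−0.48 ± 0.071, adjusted p = 0.00163), a change that was 0.15 with quantile scaling. *POT1*, the thiolase of the last step and a cargo of Pex7p, could not be measured with useful precision: its levels ran from −8.23 to −6.96 in Control and from −7.35 to −5.91 in H. These ranges overlapped, and the change of 0.70 had a 95% interval of −0.54 to 1.94.

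The auxiliary enzymes for unsaturated fatty acids differed between the related genes *DCI1* and *ECI1*. *DCI1*, a predicted isomerase, was at −4.82, −4.92 and −4.71 in Control and −5.87, −5.72 and −5.96 in H. The groups were well apart (−1.03 ± 0.084, 2.04-fold lower, adjusted p = 1.54e-04). *ECI1*, the enoyl-CoA isomerase, overlapped between the conditions (−0.04 ± 0.083, 95% interval −0.25 to 0.16). *SPS19*, the dienoyl-CoA reductase, had −6.15, −6.39 and −5.73 in Control and −7.03, −6.74 and −6.59 in H. All H values were the lower ones, but the call (−0.70 ± 0.2, adjusted p = 0.0215) was lost without Control replicate 1 (−0.73) or H replicate 1 (−0.58). With normexp, limited by its offset as for *POX1*, the change was 0.25 and called higher. *TES1*, the thioesterase that frees fatty acids from CoA, was at −2.40, −2.12 and −2.12 in Control and −2.79, −2.89 and −2.77 in H. Its groups did not overlap (−0.60 ± 0.091, adjusted p = 0.00181), and with quantile scaling the change was −0.19 and not called.

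The 2 subunits of the fatty acyl-CoA transporter of the membrane did not move alike. *PXA1* was at −3.72, −3.80 and −3.77 in Control and −4.61, −4.52 and −4.53 in H, with no overlap (−0.79 ± 0.045, 1.72-fold lower, adjusted p = 4.60e-05). Its partner *PXA2* overlapped between the conditions (0.11 ± 0.072, 95% interval −0.07 to 0.29). The difference between the 2 genes was not tested. *ANT1*, the adenine nucleotide carrier of the peroxisome, was at −0.23, −0.11 and −0.09 in Control and 0.01, 0.09 and 0.02 in H. The H arrays were all higher by a small margin (0.19 ± 0.054, adjusted p = 0.0237; −1.04 with spike-in scaling), and the call was lost without H replicate 1 (0.20), 2 (0.16) or 3 (0.20). *CAT2*, a carnitine acetyltransferase, and *CRC1*, the mitochondrial carnitine carrier, were not called, at −0.36 ± 0.19 and 0.16 ± 0.2.

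The 3 regulators changed little. *OAF1* was at −1.18, −1.20 and −1.06 in Control and −1.37, −1.34 and −1.42 in H, a small decrease without overlap (−0.23 ± 0.053, adjusted p = 0.00972) that was 0.03 with median centring. *PIP2*, its dimer partner, had −2.22, −2.33 and −2.23 against −2.37, −2.36 and −2.45. It was not called (−0.14 ± 0.052, adjusted p = 0.0586), and its value was 0.12 with median centring and 0.26 with quantile scaling. *ADR1* had −5.33, −5.35 and −5.27 in Control and −5.37, −5.32 and −5.73 in H. These groups overlapped (−0.16 ± 0.12, 95% interval −0.45 to 0.13), and the value was above 0 with median centring (0.10), quantile scaling (0.28) and normexp (0.27).

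MelH vs. Mel repeats the stress comparison on 6 other arrays, with both groups in 5 µM melatonin. Here 18 of the 44 genes were lower (40.9%) and 4 higher (9.09%), beside 31% and 21.9% of all genes, and the 22 called genes were 50% of the 44 against 52.9% of all genes. The SEs were larger, with a median of 0.12 over the 44 genes against 0.062 in H vs. Control. In both comparisons 18 genes were lower and 2, *PEX19* and *PEX21*, were higher, where 29.3% of all genes were lower in both and 18.1% higher in both. Of the 18 genes, 13 were biogenesis genes and 5 were oxidation genes. Across genes, which are not independent replicates, the 2 log2 changes had a Pearson r of 0.946 over the 29 biogenesis genes and 0.532 over the 15 oxidation genes, beside 0.924 over all genes.

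*PEX7* and its co-receptors were called again. *PEX7* stood at −1.91, −1.94 and −2.20 in Mel and −3.68, −3.69 and −3.76 in MelH, 3.23-fold lower (−1.69 ± 0.11, adjusted p = 4.12e-05). *PEX18* stood at −6.74, −6.95 and −6.57 in Mel and −8.93, −8.28 and −8.65 in MelH, well above background on 3 of 3 Mel arrays and 0 of 3 MelH arrays. The fitted change was −1.87 ± 0.18 (adjusted p = 2.30e-04), and the bound was a decrease of at least 2.33-fold. With normexp the change was −0.14 and not called. *PEX18* had at most 58.9 signal units on any array, beside negative control spreads of 63.6, 44 and 26.1 units (SD) on the Mel arrays. The bound is therefore uncertain. *PEX21* stood at −3.37, −3.15 and −3.55 in Mel and −2.16, −2.21 and −2.23 in MelH. All MelH arrays were higher, by 1.16 ± 0.12 (adjusted p = 2.94e-04), and with spike-in scaling the change was 0.20 and not called. *PEX10* (−0.94 ± 0.11), *PEX29* (−1.13 ± 0.12) and *PEX32* (−0.62 ± 0.11) were lower again, the last not with quantile scaling (−0.05).

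Among the oxidation genes that were well above background on all arrays, *TES1* showed the largest change, from −1.92, −1.98 and −1.88 in Mel to −2.77, −2.50 and −3.01 in MelH. The groups were far apart (−0.83 ± 0.14, adjusted p = 0.00247). *DCI1* was lower by 1.72-fold (−0.78 ± 0.12, adjusted p = 0.00148; not called with quantile scaling at −0.43 or with normexp at −0.25). *POX1* was at −6.26, −6.53 and −6.71 in Mel and −7.16, −7.22 and −7.39 in MelH. It was well above background on 3 of 3 Mel arrays and on 0 of 3 MelH arrays, and was 1.69-fold lower as measured (−0.76 ± 0.14, 95% interval −1.08 to −0.43, adjusted p = 0.00369), a log2 change that was 0.07 with normexp. *CRC1* was higher here (1.01 ± 0.28, adjusted p = 0.0201; 0.06 with spike-in scaling), on 2 of 3 arrays well above background in each group. The call was lost without Mel replicate 2 (0.89) or 3 (0.79) or MelH replicate 2 (0.93). On any array *POX1* had at most 96.5 and *CRC1* at most 48.6 signal units. The negative control spreads on the Mel arrays were 63.6, 44 and 26.1 units (SD), so both changes are uncertain, like the bound of *PEX18*. *SPS19*, *OAF1*, *PIP2* and *ADR1* were not called, with changes of −0.08, −0.21, −0.15 and −0.07, each of them above 0 with median centring.

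Leaving out single arrays removed 6 of the 32 calls of H vs. Control at least once and 6 of the 22 of MelH vs. Mel. Besides *CRC1*, those of MelH vs. Mel were *PEX11* (0.36 ± 0.13, adjusted p = 0.0489; −0.60 with spike-in scaling), *PEX13*, *PEX27*, *FOX2* and *PXA1*. *PEX13* was lost only without MelH replicate 1 (−0.56). *PEX27* was lost without Mel replicate 1 (−0.55) or 2 (−0.63) or MelH replicate 2 (−0.57) or 3 (−0.49). It was lower with only 2 of 5 kinds of scaling or background correction in this comparison. *FOX2* (−0.37 ± 0.12; 0.23 with quantile scaling) and *PXA1* (−0.37 ± 0.11; 0.18 with quantile scaling) were each lost without Mel replicate 1 or any one MelH replicate, with values of −0.42 to −0.28 and −0.38 to −0.27. *PEX11* was lost without any array but MelH replicate 3, with values of 0.26 to 0.42.

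**Figure D3:**
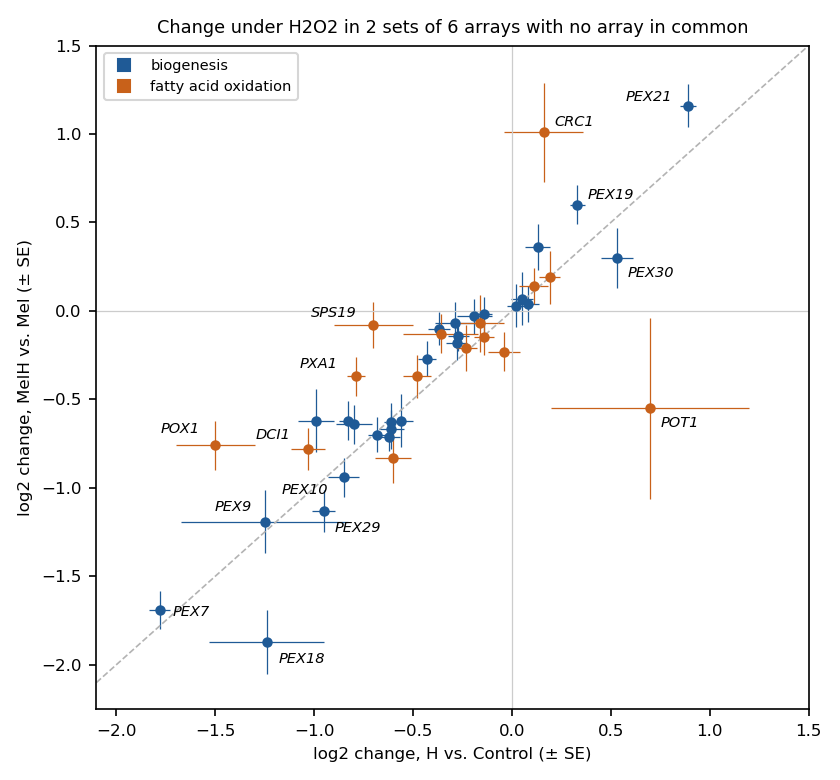
Log2 change of 42 of the 44 genes in H vs. Control (horizontal) and in MelH vs. Mel (vertical), bars ± SE, with the line of equal change. The biogenesis genes follow the line (r = 0.946 over all 29), and *POT1*, *CRC1*, *POX1* and *SPS19*, all near background, lie farthest from it among the oxidation genes.

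Whether biogenesis and oxidation genes differed in their response depended on the comparison, on the array and on the scaling. In H vs. Control the median change was −0.37 over the biogenesis and −0.23 over the oxidation genes, a difference of 0.13. Relative to the Control mean, these medians were −0.40 and −0.11 on H replicate 1 and −0.37 and −0.19 on H replicate 2. On H replicate 3 they were −0.37 and −0.42, so that the order was reversed. In MelH vs. Mel the medians were −0.18 and −0.21, a difference of −0.03. With quantile scaling and with normexp this difference was above 0, as it was in H vs. Control. Relative to the Control mean, the oxidation median was the higher one on MelH replicate 2 and the lower one on MelH replicates 1 and 3. On single arrays, relative to the Control mean, the median over the biogenesis genes lay between −0.40 and −0.27 on the 9 stressed arrays, and that over the oxidation genes between −0.42 and −0.11, so that these ranges overlapped. No test of this difference was made, because genes are not replicates of a condition. Against the same Control arrays, the medians of the biogenesis and oxidation genes were −0.30 and −0.24 in MelH vs. Control and −0.38 and −0.18 in 25MelH vs. Control. On the 25MelH arrays alone the biogenesis medians (−0.39 to −0.34) and the oxidation medians (−0.29 to −0.13) did not overlap. They overlapped on the H arrays (−0.40 to −0.37 and −0.42 to −0.11). On the MelH arrays they overlapped too (−0.34 to −0.27 and −0.35 to −0.23). In MelH vs. Control 24 of the 44 genes were lower and 4 higher (62.5% of all genes were called, 37.3% lower and 25.2% higher), and in 25MelH vs. Control 25 were lower and 5 higher (65.5% of all genes, 39.3% lower and 26.2% higher).

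The balance of higher and lower genes depended on how arrays were scaled. In H vs. Control it was 5 higher and 27 lower with the 75th percentile, 11 and 18 with median centring, 15 and 15 with quantile scaling, 12 and 21 with normexp and 0 and 43 with the spike-in probes. In MelH vs. Mel it was 4 and 18, 7 and 14, 10 and 11, 2 and 10, and 0 and 41 in the same order. The median change of all genes in H vs. Control was −0.09, 0.17, 0.07, 0.07 and −1.32 in these 5 cases, and in MelH vs. Mel it was −0.05, 0.17, 0.07, 0.04 and −1.01. For MelH vs. Control the splits were 4 and 24, 11 and 15, 13 and 13, 7 and 18, and 0 and 43, and for 25MelH vs. Control 5 and 25, 14 and 16, 15 and 15, 0 and 0, and 0 and 44.

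Some calls did not depend on this choice. In H vs. Control 12 of the 44 genes were lower in all 5 cases (27.3%, where 21.2% of all genes were). These were 10 of 29 biogenesis genes (34.5%) and 2 of 15 oxidation genes (13.3%). In MelH vs. Mel 8 genes were lower in all 5 cases (18.2%, where 15.6% of all genes were). In both comparisons at once it was 7 genes (15.9%), close to the 14.6% of all genes: *PEX3*, *PEX7*, *PEX8*, *PEX2*, *PEX10*, *PEX22* and *PEX29*. All 7 were biogenesis genes (24.1% of 29), and 0 of 15 were oxidation genes, of which *POX1*, *POT1*, *SPS19* and *CRC1* were near background. This split between the lists was not tested. *PEX19* and *PEX21* were higher in both comparisons with every scaling but the spike-in probes. This count of settings was chosen after the data were seen.

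**Figure D4:**
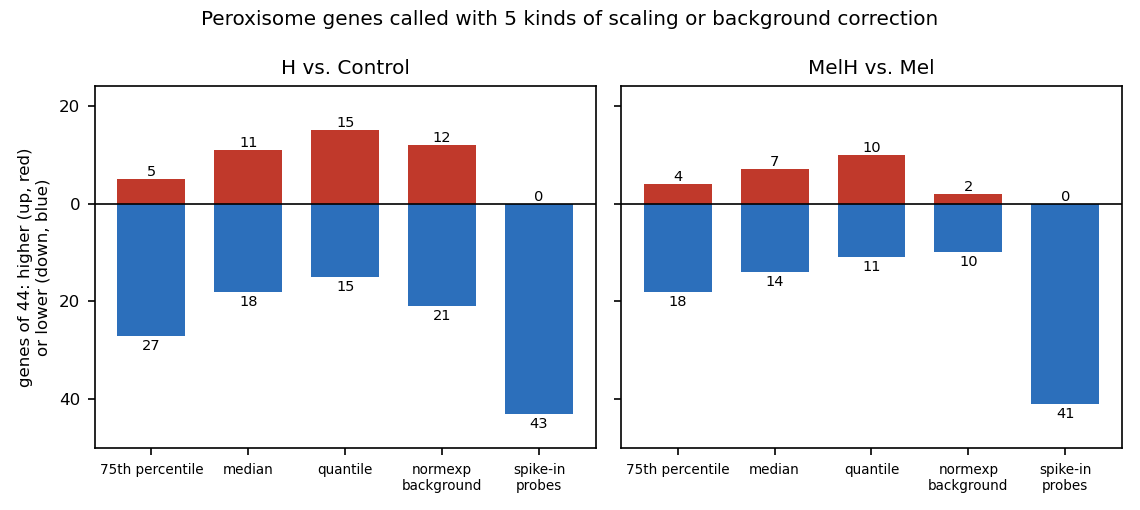
Number of the 44 genes called higher (red, upward) or lower (blue, downward) in H vs. Control and MelH vs. Mel with 5 kinds of scaling or background correction. The number lower ranges from 15 to 43 in H vs. Control and from 10 to 41 in MelH vs. Mel.

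Without stress, no change with melatonin passed the threshold. In Mel vs. Control limma called 0 of the 44 genes (0.353% of all genes were called), and 3 had an unadjusted p under 0.05, where 10.4% of all genes did. The log2 changes of the 44 genes lay between −0.40 and 0.38, with a median SE of 0.11. The part of the wide spread of negative control spots on the Mel arrays in these values was not tested. *TES1* was at −1.92, −1.98 and −1.88 in Mel, above its 3 Control values of −2.40, −2.12 and −2.12 (0.28 ± 0.11, adjusted p = 0.423). *DCI1* was at −5.02, −5.12 and −5.02, below its 3 Control values (−0.24 ± 0.091, adjusted p = 0.438). *PXA1*, at −3.83, −4.12 and −4.11, was also below its Control values (−0.25 ± 0.11, adjusted p = 0.477). *PEX7* gave −0.11 ± 0.11, with a 95% interval of −0.36 to 0.14.

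Under stress 5 µM melatonin gave no called gene. In MelH vs. H limma called 0 of the 44 genes and 0% of all genes, and 8 of the 44 had an unadjusted p under 0.05 (6 higher, 2 lower), beside 12.5% of all genes (8% higher, 4.5% lower). *PXA1* was at −4.36, −4.41 and −4.40 in MelH, above its H values of −4.61, −4.52 and −4.53 (0.16 ± 0.045, adjusted p = 0.321). *PEX25* was at 0.91, 1.03 and 0.91 in MelH against 0.74, 0.77 and 0.80 in H (0.18 ± 0.05, adjusted p = 0.324). Both genes showed full separation of 3 arrays against 3, as did 12 of the 44 genes in all in this comparison, where 21.8% of all genes did.

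The higher dose gave no called gene either. In 25MelH vs. H 0 of the 44 genes and 0% of all genes were called, and 5 had an unadjusted p under 0.05, beside 15.9% of all genes. *PEX19* was at 0.42, 0.42 and 0.51 in 25MelH and at 0.54, 0.43 and 0.40 in MelH, both above its H values of 0.24, 0.31 and 0.26. Its change was 0.18 ± 0.043 in 25MelH vs. H (adjusted p = 0.214) and 0.19 ± 0.053 in MelH vs. H (adjusted p = 0.331), against the same H arrays. *PEX25* gave 0.15 ± 0.046 (adjusted p = 0.254) and *PEX11* 0.10 ± 0.034 (adjusted p = 0.276; −0.05 with spike-in scaling) in 25MelH vs. H. Between the doses, in 25MelH vs. MelH, 0 of the 44 genes and 0% of all genes were called and 1 had an unadjusted p under 0.05, beside 1.38% of all genes. The smallest p values in that comparison were those of *CRC1* (−0.34 ± 0.13), *PEX29* (−0.14 ± 0.056) and *PEX35* (−0.15). With normexp these were 1.40, 0.30 and 0.96. That setting also shifted the median of all genes in 25MelH vs. Control, as given in the last section, so these values are not read as reversals of single genes.

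**Figure D5:**
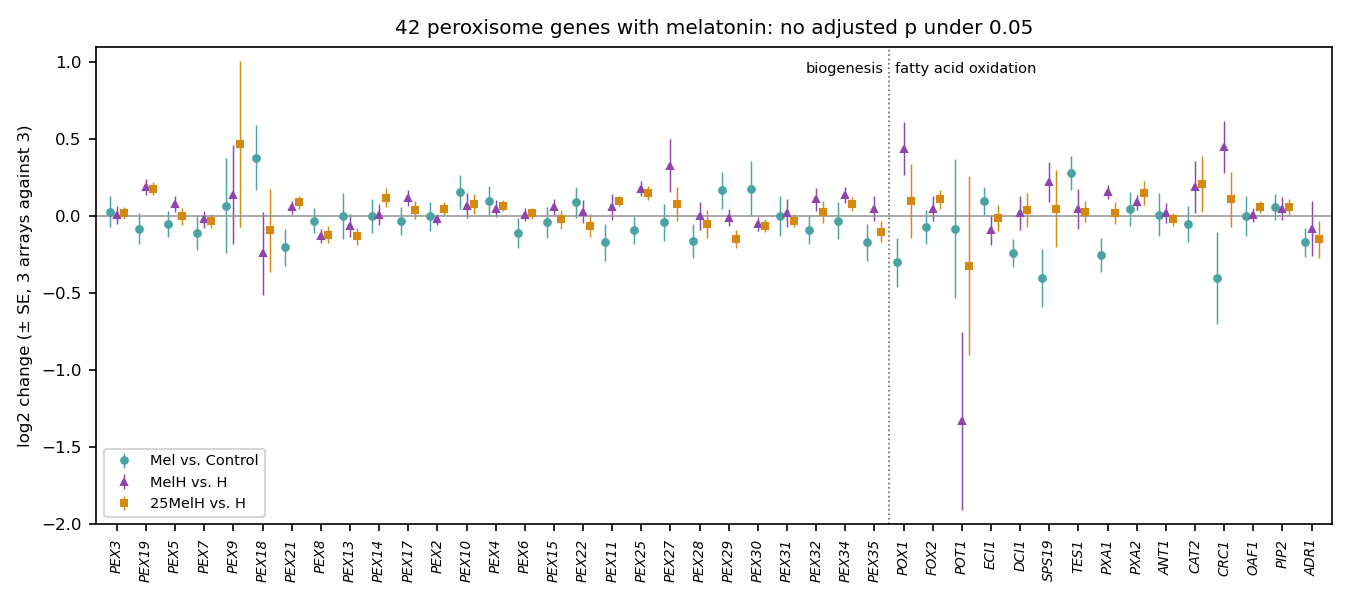
Log2 change (vertical axis, bars ± SE) of 42 of the 44 genes in Mel vs. Control, MelH vs. H and 25MelH vs. H, the last 2 sharing the H arrays. No symbol has an adjusted p under 0.05, and the widest bars belong to *PEX9* and *POT1*, which are near background.

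The difference between the melatonin effects with and without stress, MelH − H set against Mel − Control, used 12 arrays. It called 0 of the 44 genes (0.37% of all genes), and 6 of the 44 had an unadjusted p under 0.05, beside 10.3% of all genes. The smallest p was that of *PXA1*, whose Mel arrays were all below Control and whose MelH arrays were all above H (0.42 ± 0.11, adjusted p = 0.235). Without Mel replicate 1, the Mel array nearest to Control, the value was 0.52 and the adjusted p 0.0305. The arrays lay on 2 slides, and the remaining Mel arrays were both on slide 2, with only replicate 3 of Control. The part of slide in this value was not tested. *POX1* (0.75 ± 0.25, adjusted p = 0.322; −0.06 with normexp) and *PEX25* (0.27 ± 0.095, adjusted p = 0.346) followed.

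Some genes that work beside the 44 were also lower after H2O2. Of 28 other genes of peroxisomal metabolism, inheritance and glucose repression, 21 were lower and 4 higher in H vs. Control, with a median of −0.41, where 41.2% of all genes were lower and 27.2% higher with a median of −0.09. In MelH vs. Mel 14 of the 28 were lower and 3 higher, with a median of −0.39, where 31% of all genes were lower and 21.9% higher with a median of −0.05. *MIG1*, the glucose repressor, had levels of −0.76, −0.91 and −0.93 in Control and −3.57, −3.64 and −3.68 in H (−2.77 ± 0.063, adjusted p = 5.07e-06). *INP2*, which tethers peroxisomes to the myosin that carries them into the bud, went from −1.87, −1.98 and −2.20 to −4.30, −4.35 and −4.35 (−2.32 ± 0.09, adjusted p = 1.62e-05). *CIT2*, the peroxisomal citrate synthase, was at 0.13, 0.11 and 0.09 in Control and −1.81, −1.73 and −1.57 in H (−1.81 ± 0.069, adjusted p = 1.58e-05). All 3 genes were far outside the spread of their conditions. *FAA2*, which activates medium-chain fatty acids at the peroxisome, was lower by −1.73 ± 0.075 (adjusted p = 2.14e-05). *CTA1*, the peroxisomal catalase, was not called in H vs. Control (−0.06 ± 0.061, 95% interval −0.21 to 0.10) or in MelH vs. Mel (0.01 ± 0.14, 95% interval −0.33 to 0.34). It was singled out after its values were seen. In Mel vs. Control *CIT2* was at 0.94, 0.95 and 1.43 and above all its Control values, at 1.00 ± 0.15 and an adjusted p of 0.0703.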

How the data were processed

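Each of 15 cultures was hybridised to 1 one-colour array, and the groups came from the sample labels. The scanner tables that the authors deposited come from Feature Extraction 12.0.1.1 and hold intensity in arbitrary units, background-subtracted as processed signal. A matrix of log2 values normalized by the authors was used only as an alternative because 9 of its 15 columns equal another sample's scanner table (Mel columns hold MelH, H columns Mel, MelH columns H), and 6 their own. Here control spots and the 1 to 84 spots an array that the scanner software had marked as outliers were left out. Both spots of each probe were averaged as log2 processed signal, and each array was scaled to its 75th percentile. Of several probes of a gene the brightest was kept, which left 6224 genes. The 44 genes and the lists of 28 and 10 others were matched through their systematic names to a gene table, 1 probe each, and had no missing value.

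Each comparison was fitted on its 6 arrays in limma 3.58.1 under R 4.3.3 (lmFit, eBayes, two-sided, Benjamini-Hochberg over all genes, threshold 0.05), and (MelH − H) − (Mel − Control) on 12 arrays. A gene not well above background on every array of a group is given with its number of arrays or as a bound: the brighter group's mean against, per dim array, the higher of its own value and the lowest level well above background there. The fits were tested on simulated data. The members and lists were chosen with earlier results of these data known. Values on every array are given for up to 8 biogenesis and 8 oxidation genes with the largest change among those called in H vs. Control without overlap, for the 3 regulators, for the 3 smallest p values of each melatonin comparison, and for the 4 largest changes of the 28 other genes; further genes were chosen after their values were seen. The values of 2 of the 44 genes are counted but not reported here one by one or drawn.

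Deviations from the condition means correlated between arrays of the same number with r from 0.106 to 0.28 in the 3 pairs of Mel vs. Control and from 0.143 to 0.307 in those of MelH vs. H. No source states a pairing, so the fits reported here were unpaired, and replicate number was a block only in an alternative. In the other comparisons not all pairs were above 0.1. Alternatives were other scalings (median, quantile, the spike-in probes), normexp background correction with an offset of 50, which used the median spot and background signals, a filter on dim probes, the mean of a gene's probes, slide or replicate number as a block, each of the 2 slides alone, all 15 arrays in one fit, an unadjusted p and leaving out each array. Within a slide, a condition with 1 array is assumed to vary like the others. The number of arrays limits the precision. Figures were drawn with matplotlib 3.10.9.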

Additional observations from a re-analysis of the deposited data

Results flagged for a closer look

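*PXA1*, a subunit of the peroxisomal fatty acyl-CoA transporter, stood out because its melatonin effect had opposite signs without and with H2O2. All 3 Mel arrays were below all 3 Control arrays, and all 3 MelH arrays were above all 3 H arrays. The difference between the effects was 0.42 on the log2 scale (SE 0.11, unadjusted p = 0.00362), and its adjusted p over all genes in limma was 0.235, so it did not pass the threshold. It was found by looking through all 44 genes.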

How the results depend on the processing

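Within slide 2, which holds 1 Control, 2 Mel, 2 H, 1 MelH and 1 25MelH array, the called genes numbered 18 in H vs. Control, 13 in MelH vs. Mel, 9 in MelH vs. Control and 10 in 25MelH vs. Control. Spike-in scaling gave 41 in MelH vs. Mel and 43 in MelH vs. Control, and normexp 12 in MelH vs. Mel and 0 in 25MelH vs. Control, where 78 of all genes were called and their median was 0.34; the cause was not tested. With an unadjusted p the counts were 3 in Mel vs. Control, 8 in MelH vs. H, 5 in 25MelH vs. H, 1 in 25MelH vs. MelH and 6 for the difference between melatonin effects. The other settings kept each count of called genes within 1.5 times. With the replicate block the counts were 32, 22, 27 and 28 in the 4 stress comparisons in the order of the report and 0 in every melatonin comparison, so this pairing changed no count by over 1.5 times. Leaving out 1 array gave 28 to 32, 17 to 24, 22 to 26 and 26 to 29 genes in the stress comparisons, 0 in each melatonin comparison, and 0 to 1 for the difference between melatonin effects.

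The median of the oxidation genes minus that of the biogenesis genes became 0.28 (quantile), 0.34 (normexp), 0.34 (slide 1) and 0.06 (slide 2) in H vs. Control. In MelH vs. Mel it became 0.17 (quantile), 0.21 (normexp) and 0.03 (slide 1), each of opposite sign to the main value. Without single arrays the difference ranged from 0.11 to 0.22 in H vs. Control and from −0.08 to 0.10 in MelH vs. Mel.

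Signs were followed only for genes chosen by the rules given with the processing. Other genes turned sign too. Among them, in H vs. Control, were *PEX6* (0.12), *PEX15* (0.03), *PEX17* (0.17) and *PEX35* (0.31) with quantile scaling. With spike-in scaling *PEX19* (−0.90) and *PEX30* (−0.70) did so. The turns of the chosen genes follow. In H vs. Control, median centring gave *OAF1* 0.03, *PIP2* 0.12 and *ADR1* 0.10, and quantile scaling gave *FOX2* 0.15, *PIP2* 0.26 and *ADR1* 0.28. Spike-in scaling gave *PEX21* −0.33 and *ANT1* −1.04. Normexp gave *PEX9* 0.44, *PEX18* 0.31, *POX1* 0.13, *SPS19* 0.25 and *ADR1* 0.27. Its offset lifts dim genes on stressed arrays, so its signs do not settle their direction in either stress comparison. In MelH vs. Mel, median centring gave *SPS19* 0.14, *OAF1* 0.01, *PIP2* 0.08 and *ADR1* 0.15, and quantile scaling gave *PXA1* 0.18, *SPS19* 0.19, *FOX2* 0.23, *PIP2* 0.19 and *ADR1* 0.28. Spike-in scaling gave *ANT1* −0.76, and normexp gave *PEX9* 0.14, *POX1* 0.07, *SPS19* 0.24 and *ADR1* 0.11. Over the fits without 1 array, *SPS19* ranged from −0.19 to 0.00 (without Mel replicate 3) and *ADR1* from −0.22 to 0.07 (without MelH replicate 3). *PEX11* was −0.05 in 25MelH vs. H with spike-in scaling. In 25MelH vs. MelH normexp gave *CRC1* 1.40, *PEX29* 0.30 and *PEX35* 0.96, beside the shift of all genes in 25MelH vs. Control given above. *POX1* was −0.06 with normexp for the difference between melatonin effects. Of the values of the chosen genes, under the alternatives followed gene by gene, 643 kept direction and side of the threshold. Another 41 lost the threshold, 10 passed it only there and 34 turned sign. These counts leave out the genes that were not chosen. Signals near background limit *PEX9*, *PEX18*, *POX1*, *POT1*, *SPS19* and *CRC1*.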
